A study of Homo sapiens with 4 samples.

Results

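The MYC and PVT1 genes lie side by side in band 8q24 of human chromosome 8, and the binding of CTCF and the acetylation of histone H3 at lysine 27 (H3K27ac) were described over a window of 1700 kb around them in DU145 cells. DU145 is an established prostate cancer cell line that, per the labels, came from a metastasis to the brain. The window was chr8:127600000-129300000 in build hg19, and a peak was a member when its summit lay in it. It held 130 of 86516 peaks in all, made up of 113 of 50364 H3K27ac peaks and 17 of 36152 CTCF peaks. The window was selected on values of these same lists, since a cluster of H3K27ac peaks at PVT1 was already known to stand high in them, so the numbers for the window are descriptions. Within it, MYC was taken as 128.748 to 128.754 Mb, PVT1 as 128.807 to 129.113 Mb, and a gene-poor stretch upstream of MYC, known for prostate cancer risk, as 127.85 to 128.65 Mb. Gene bounds are rounded to 1 kb, so distances to a gene start carry an uncertainty of about that size.

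The series holds 4 libraries. DU145 chromatin was pulled down with an antibody to CTCF in the first and with an antibody to H3K27ac in the second, and the others are input chromatin, one from DU145 and one from the prostate cancer line LNCaP. All cells were grown in the same medium, and the labels name no drug and no genetic change. Each mark has 1 library, so no value has an error between cultures and no test between samples was possible. The strength of a peak is given as its fold enrichment. This is the authors' ratio of summit signal over the background that their peak caller took for that peak, local or genome-wide. Fold enrichment is used only to describe and rank peaks within one list. Fragments are whole sequenced pieces piled up at a summit, solved from the authors' values. The median peak rested on 22 fragments in the window and 23 in the rest of the assembled chromosomes for H3K27ac, and on 56 and 45 for CTCF. Gene positions of build hg19 beyond those above were not used here, so the identity of the line was not checked against marker genes.

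MYC encodes a transcription factor that drives cell growth and division. PVT1 is a long noncoding RNA gene downstream of MYC that hosts microRNAs, and the pair is often gained together in cancers. Active promoters and enhancers carry H3K27ac on their nucleosomes, and long runs of it are typical of strong enhancer regions. CTCF is a zinc finger protein that holds the feet of chromatin loops and separates neighbouring regulatory domains, and a CTCF site just upstream of the MYC promoter is known in other cell types as a docking site for distant enhancers. In the RefSeq gene order of GRCh38.p14, the genes between LRATD2 and MYC include the noncoding PCAT1, PCAT2, PRNCR1, CASC19, CCAT1, CASC21, CASC8 and CCAT2, the protein-coding POU5F1B, and CASC11 directly before MYC. PVT1 follows MYC, and MIR1204, MIR1205, MIR1206, MIR1207 and MIR1208 come after its start. Peaks were not assigned to these neighbours.

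Acetylation in the window was concentrated on PVT1, while CTCF was not. PVT1 had 93 H3K27ac summits and 2 CTCF summits in 306 kb. The upstream stretch had 2 H3K27ac summits and 7 CTCF summits in 800 kb. MYC itself had 1 H3K27ac summit and 2 CTCF summits. Per Mb, PVT1 held 303.9 H3K27ac peaks and the upstream stretch 2.5, a ratio of 121.6 (exact interval for counting error 32.7 to 1019). That interval is no test, since acetylation at PVT1 led to the choice of the window. Neighbouring peaks of a locus are also not independent counts. For CTCF the densities were 6.54 peaks per Mb on PVT1 and 8.75 per Mb in the upstream stretch. Their ratio was 0.747, with an interval for counting error from 0.0757 to 3.92. With 2 and 7 peaks that are not independent, this interval is no test either. When only peaks with a −log10 q of at least 10 were kept, the ratio was 0. The stretches differ in another way: the CTCF peaks on PVT1 had fold enrichments of 4.50 and 5.09, while those of the upstream stretch ranged from 4.50 to 19.2 with a median of 11.1.

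**Figure D1:**
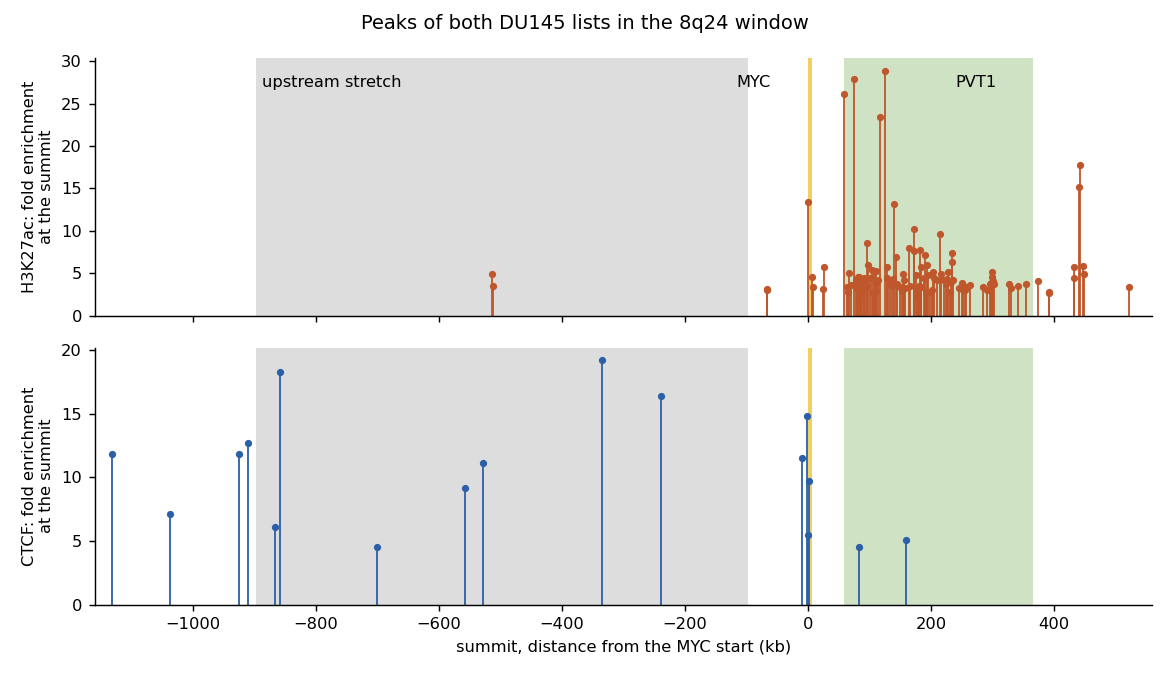
Fold enrichment at the summit of every H3K27ac peak (top, 113 peaks) and CTCF peak (bottom, 17 peaks) in the window, against the distance of the summit from the MYC start in kb; grey, yellow and green bands are the upstream stretch, MYC and PVT1. H3K27ac peaks crowd on PVT1, where the highest reaches 28.9, and the upstream stretch holds 2, while the CTCF peaks are spread from before the upstream stretch to PVT1.

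Against the rest of the assembled chromosomes, the window was dense in H3K27ac peaks but its typical peak was not strong. It had 66.5 H3K27ac peaks per Mb, against 16.5 per Mb elsewhere, a ratio of 4.02 (exact Poisson interval 3.32 to 4.84, counting error only). This interval is no test either, because the window was chosen for the H3K27ac cluster at PVT1. H3K27ac peaks covered 67.7 kb per Mb of the window, against 14.2 kb per Mb elsewhere. The median fold enrichment was 4.15 in the window and 4.55 elsewhere, and the median width was 572 bases in the window and 567 bases elsewhere. Of the 113 window peaks 9 reached a fold of 10, or 7.96%, where 20.6% of all H3K27ac peaks did. At the stricter limit of 10 for −log10 q, 33 of the 113 remained, or 29.2%, beside 43.4% of all H3K27ac peaks. In width the window leaned the other way, with 6 peaks of 3 kb or more (5.31%, Wilson interval 2.46 to 11.1), where 2.45% of all H3K27ac peaks are that wide. Of these 6, 5 belonged to the cluster at PVT1 for which the window was chosen. CTCF peaks numbered 10 per Mb in the window and 11.9 per Mb elsewhere, a ratio of 0.843 with an interval from 0.491 to 1.35. Their median fold enrichment was 11.1 in the window and 9.59 elsewhere, and 9 of 17 reached a fold of 10, where 47.4% of all CTCF peaks did.

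The MYC promoter carried a wide acetylated peak with CTCF on its upstream edge and inside it. The H3K27ac peak at chr8:128746675-128751928 spanned 5.25 kb and had a fold enrichment of 13.4 from 69 fragments (exact Poisson interval 53.7 to 87.3). Its summit lay 0.721 kb downstream of the MYC start. By width it stood at rank 259 among the 50364 H3K27ac peaks, and by fold at rank 7160. It began before the gene start, and 67.0% of the bases of MYC lay in H3K27ac peaks.

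CTCF formed a run of 4 peaks around this promoter, with summits spread over 11.9 kb. The farthest upstream lay at chr8:128737801-128738317, 9.87 kb before the MYC start, and 75 fragments (interval 59.0 to 94.0) gave it a fold of 11.6. The next, at chr8:128746198-128746492, had its summit 1.65 kb before the start and a fold of 14.8 from 60 fragments (interval 45.8 to 77.2). It was the strongest of the run and ended 182 bases short of the acetylated peak. The third, at chr8:128748400-128748601, was weak, with a fold of 5.49 from 29 fragments (interval 19.4 to 41.6). Its summit lay inside the acetylated peak, 0.489 kb after the start and 232 bases from the H3K27ac summit. The fourth, at chr8:128749959-128750199, had its summit 2.07 kb after the start and a fold of 9.72 from 49 fragments (interval 36.3 to 64.8). Within the CTCF list the strongest of them exceeded 76.1% of peaks and the weakest 17.3%. In all, 2.87% of the 35690 CTCF peaks on assembled chromosomes lay in runs of 4 or more summits as tight as this one. The span was read off these peaks, so the share describes how common such runs are and no more.

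**Figure D2:**
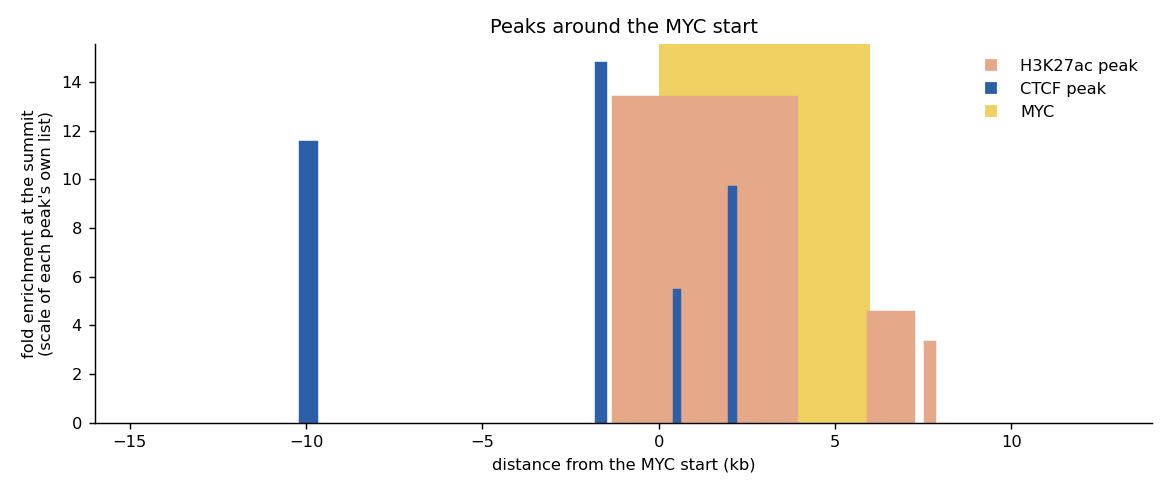
H3K27ac peaks (light bars) and CTCF peaks (blue bars), each drawn as wide as the peak and as high as its fold enrichment on the scale of its own list, against the distance from the MYC start in kb; the yellow band is MYC. A CTCF peak with a fold of 14.8 stands just outside the upstream edge of the acetylated peak, and 2 weaker CTCF peaks stand inside it.

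Between MYC and PVT1 lay a few small acetylated peaks, and H3K27ac peaks covered 6.87% of that stretch of 53 kb, beside 6.77% of the whole window. The 6.87% includes the front of the strong peak at the PVT1 start, described below, which begins before the PVT1 bound. Behind the promoter peak followed a peak of 1.34 kb with a fold of 4.59 and a small peak with a fold of 3.35, which together with it formed a cluster of 9.16 kb when peaks within 12.5 kb were joined. A pair of peaks 24.7 and 25.2 kb after the MYC start had folds of 3.12 and 5.72. No CTCF peak was called between the MYC end and the PVT1 start.

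The PVT1 start was the site of a strong acetylated peak with no CTCF peak nearby. The H3K27ac peak at chr8:128806050-128809760 was 3.71 kb wide, and 147 fragments (interval 124.2 to 172.8) gave it a fold of 26.1. Its summit fell 0.11 kb before the PVT1 start, which is within the rounding of that bound. By fold it was stronger than the MYC promoter peak in the same list, 26.1 against 13.4, a description of 1 library with no test. The nearest CTCF summit was 23.7 kb away, inside the gene, and upstream the nearest was the last of the run at MYC, 56.9 kb away.

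From this peak acetylation ran on through most of PVT1 in a cluster of 206.2 kb. That length depends on the joining distance and the peak threshold: joined at 3 kb the longest cluster was 87.3 kb, and with peaks of a −log10 q of at least 10 alone it was 99.2 kb. Joined at 12.5 kb, the cluster at chr8:128806050-129012252 had 82 H3K27ac peaks, 72.6% of those in the window, and 89.4 kb in peaks, or 43.4% of its length. Its strength was uneven. The 4 peaks with a fold of 20 or more held 24.7% of its bases in peaks and 59.7% of its score, the sum of fold enrichment times width in kb. Of the 82 peaks 56 had a fold under 5. Fragments at the summit ranged from 12 to 185 with a median of 21. The breaks between its peaks were short, with a median of 833 bases and a maximum of 8544 bases, and 44 of 81 were under 1 kb.

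The strongest peaks lay in the first part of the gene. After the peak at the start came chr8:128818304-128825214, 6.91 kb wide, with its summit 15.3 kb into PVT1 and a fold of 27.9 from 183 fragments (interval 157.4 to 211.5). Next was a pair at 57.2 and 65.5 kb into the gene. The first of this pair, chr8:128862865-128870648, was the widest of the window at 7.78 kb and had a fold of 23.4 from 185 fragments (interval 159.3 to 213.7). Its neighbour, chr8:128870883-128874522, had the highest fold of the window, 28.9 from 136 fragments (interval 114.1 to 160.9). These 4 peaks spanned 68.5 kb. By fold they took ranks from 1391 to 2517 among the 50364 H3K27ac peaks, and by width ranks from 64 to 736.

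Farther into PVT1 the peaks became weaker and fewer. A peak 81.2 kb into the gene had a fold of 13.2 from 64 fragments, a peak at 113.7 kb had 10.3 from 89 fragments, and a peak at 155.3 kb had 9.59 from 58 fragments. In 6 equal bins of 51 kb from the start of PVT1, H3K27ac peaks covered 60.8%, 52.9%, 34.5%, 24.3%, 8.72% and 5.45% of bases. The highest fold per bin was 27.9, 28.9, 10.3, 9.59, 5.11 and 3.78. The median fold per bin stayed between 3.59 and 4.47. Among called peaks, the bins thus differed in bases covered and in their strongest peaks more than in the typical peak. Weaker sites are not listed, so this median cannot show how acetylation below the calling threshold changed along the gene. The median local background of the peaks was 4.82, 4.44, 4.30, 4.46, 3.89 and 4.74 fragments in the same order, with 4 peaks in the last bin, and its part in the coverage was not tested.

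**Figure D3:**
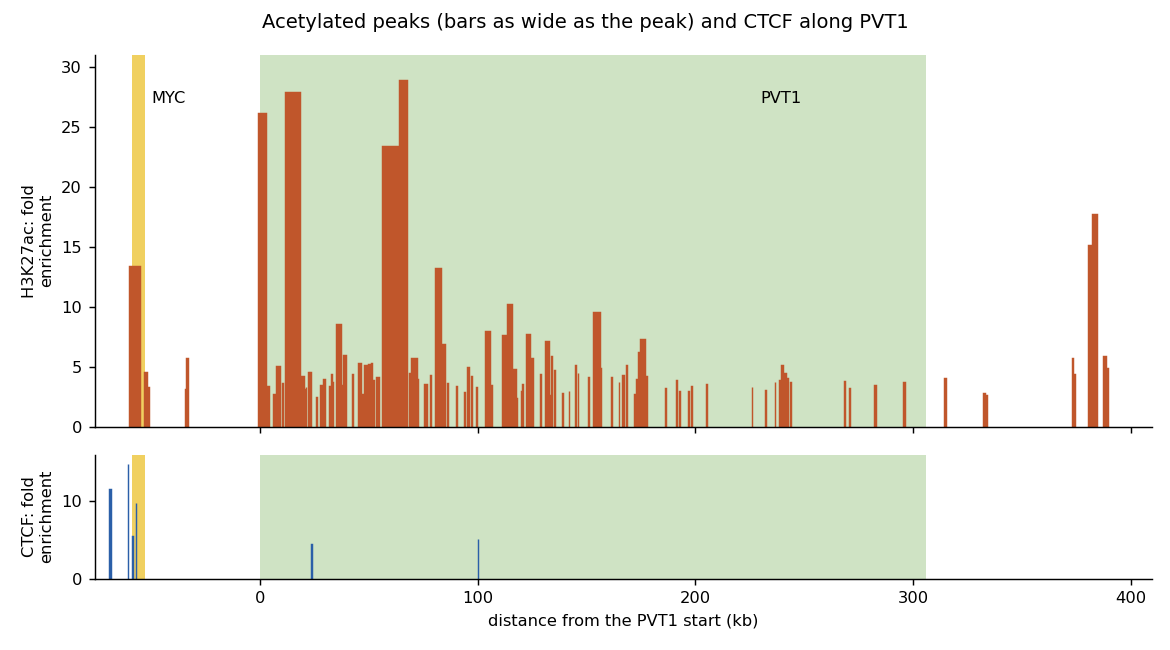
H3K27ac peaks (top) and CTCF peaks (bottom) from MYC to beyond PVT1, each bar as wide as the peak and as high as its fold enrichment, against the distance from the PVT1 start in kb; yellow and green bands are MYC and PVT1. The 4 highest H3K27ac bars stand in the first part of PVT1, and the 2 CTCF peaks inside the gene have folds of 4.50 and 5.09.

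**Figure D4:**
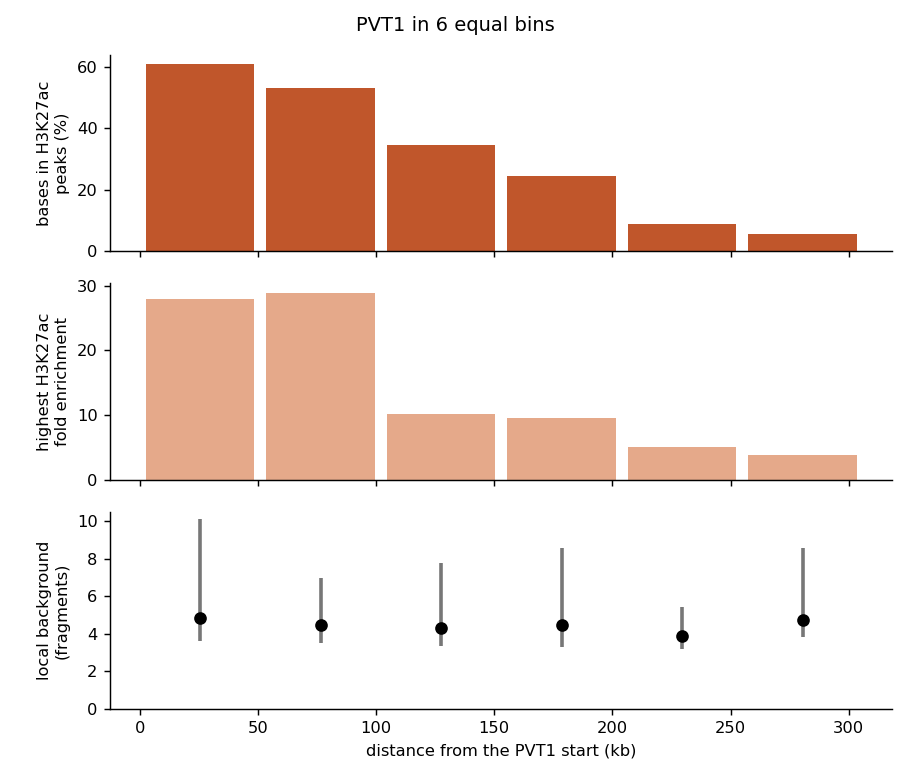
PVT1 in 6 bins of 51 kb from its start: percent of bases in H3K27ac peaks (top), highest fold enrichment of an H3K27ac peak (middle), and local background of the H3K27ac peaks in fragments (bottom, point for the median and line for the range). Coverage is 60.8% in the first bin and 5.45% in the last. The median background of the called peaks lies between 3.89 and 4.82 fragments per bin, and its part in the coverage was not tested.

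The end of PVT1 held a pair of weak clusters. The cluster at chr8:129032931-129050953 had 8 peaks over 18.0 kb, with a highest fold of 5.11, and the cluster at chr8:129075088-129103132 had 4 peaks over 28.0 kb, with a highest fold of 3.78. Neither held a CTCF summit. Their peaks covered 22.1% and 9.92% of their length, less than in the long cluster before them.

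Downstream of PVT1 acetylation became strong again in a short cluster. At chr8:129179852-129196383, 6 peaks over 16.5 kb included a peak with a fold of 17.7 from 116 fragments (interval 95.9 to 139.1) and a peak beside it with 15.1 from 109 fragments (interval 89.5 to 131.5). These were the next strongest H3K27ac peaks of the window after the 4 on PVT1, both above the MYC promoter peak by fold, and they lay 441.9 and 440.7 kb from the MYC start. The other 4 peaks of the cluster had folds between 4.39 and 5.86. By the score its rank among all 18213 clusters was 1450, near that of the MYC promoter cluster at 1558. No CTCF summit lay in it, and the nearest were 272.8 kb before and 138.7 kb after it. The remaining downstream peaks had folds between 2.62 and 4.03.

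The upstream stretch was nearly free of acetylation but not of CTCF. Its only H3K27ac peaks were a pair at chr8:128234460-128235651, with folds of 4.85 from 34 fragments and 3.53 from 19 fragments. On either side, no H3K27ac peak was called for 663.7 kb (chr8:127570746-128234459, which begins before the window) and for 444.9 kb (chr8:128235652-128680566). Of the 49758 gaps between neighbouring H3K27ac peaks, 1.47% were longer than the first of these and 2.22% longer than the second, and the median gap was 4.08 kb. When the assembled chromosomes were cut into 3856 tiles of 800 kb, 235 tiles (6.09%) had as few H3K27ac and at least as many CTCF summits. Tiles with so few H3K27ac summits made up 39.5%, and the median tile had 5 H3K27ac and 8 CTCF summits, so a stretch with few acetylated peaks was common. Closer to MYC, a weak pair 67.3 and 66.5 kb before its start had folds of 3.18 and 3.00.

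The strongest CTCF peaks of the window stood in this stretch. The highest fold, 19.2 from 85 fragments (interval 67.9 to 105.1), was at chr8:128412897-128413306, 334.9 kb before the MYC start. The second, 18.3 from 84 fragments (interval 67.0 to 104.0), was at chr8:127888829-127889160, and the third, 16.4 from 71 fragments (interval 55.5 to 89.6), at chr8:128508634-128509164, 239.1 kb before the start. They exceeded 88.9%, 86.7% and 81.8% of the CTCF list, and their nearest H3K27ac peaks lay 177245, 318083 and 171402 bases away. Peaks with moderate folds bordered the acetylated pair on its upstream side, 11.1 at chr8:128219222-128219757 and 9.14 at chr8:128190815-128191063. The weakest of the stretch were at chr8:127881643-127882034 with a fold of 6.08 and at chr8:128047265-128047462 with 4.50. Before the stretch, CTCF peaks with folds of 11.9, 7.13, 11.9 and 12.7 followed each other from 1131.7 to 911.2 kb before MYC, and no H3K27ac peak was called among them.

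Each acetylated cluster was set beside the CTCF peaks around it. Of 11 clusters that touched the window, 9 held no CTCF summit, beside 79.2% of all 18213 clusters, and the MYC promoter cluster and the PVT1 cluster held 2 each. The nearest CTCF summits outside the MYC promoter cluster lay 0.329 kb before it, with the fold of 14.8, and 74.8 kb after it, with a fold of 4.50. The PVT1 cluster had its nearest outside summits 56.0 kb before its start, with a fold of 9.72, and 322.8 kb after its end, with a fold of 13.1. That downstream peak, chr8:129334983-129335244, lay beyond the window, 587.1 kb from the MYC start. Between the second CTCF peak in PVT1 and this peak no CTCF peak was called for 427.9 kb, a gap that 2.48% of the 35666 CTCF gaps exceeded. Counting only CTCF peaks at or above the median fold of their list (9.52), the stretch from the last peak at MYC to this peak was free of CTCF for 584.8 kb. Of the 17966 gaps between such peaks 4.95% were longer, and the median was 60.4 kb. The acetylated pair in the upstream stretch lay 15.1 kb after a CTCF summit and 177.4 kb before the next.

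CTCF and acetylation met in the window at few places. The MYC promoter peak was the only H3K27ac peak to overlap CTCF, 1 of 113 (0.885%, Wilson interval 0.156 to 4.84), beside 10.1% of all H3K27ac peaks. From the other side, 2 of 17 CTCF peaks overlapped H3K27ac (11.8%, interval 3.29 to 34.3), beside 14.2% of all CTCF peaks. Within 1 kb of an H3K27ac peak were 5 of 17 (29.4%, interval 13.3 to 53.1), beside 19.9% of all. These were 3 of the run at MYC and both weak peaks in PVT1. The PVT1 peaks stood in breaks of the acetylation, 99 and 432 bases from the nearest H3K27ac peak: chr8:128830544-128830740 with a fold of 4.50 from 17 fragments (interval 9.90 to 27.2) and chr8:128906961-128907123 with 5.09 from 26 fragments (interval 17.0 to 38.1). The other 12 CTCF peaks were at least 8357 bases from acetylation. Peaks of a locus share chromatin, so these intervals are too narrow as a measure of how the locus would vary.

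The PVT1 cluster was long and densely acetylated and held little CTCF when set beside clusters of like size. Clusters of 100 kb or more numbered 52 of 18213 (0.286%), among them 1 of the 11 clusters of the window, and the PVT1 cluster was the fifth longest. At the 3 kb joining distance or the stricter threshold above it would fall short of 100 kb, so the comparison holds for joining at 12.5 kb. By the score its rank among all clusters was 6, and 2 of the other 51 long clusters were above it. H3K27ac peaks made up 43.4% of its length, against a median of 29.9% in the other 51 (range 13.6% to 59.2%), and 7 of them exceeded it. Its highest fold of 28.9 was near their median of 31.4, and 29 of them had a higher one. It held 9.70 CTCF summits per Mb, against a median of 36.4 per Mb in the others (range 0 to 104.3), and 4 of the others held fewer. No CTCF summit in it reached the median fold of the CTCF list; this was so in 5 of the other 51, while 46 held at least 1 such summit. The distance from its end to the next CTCF summit, 322.8 kb, exceeded that of each of the other 51 long clusters, whose median was 19.5 kb and whose maximum was 113.3 kb. Before its start the distance of 56.0 kb was less unusual, with 12 of the others farther from CTCF (median 22.2 kb). Cut into 10101 tiles of 306 kb, the assembled chromosomes had 2 tiles (0.0198%) with as many H3K27ac summits as PVT1. Other long clusters held 106, 105 and 96 peaks over 229.8, 281.1 and 214.3 kb, beside 93 summits on PVT1. Tile bounds can split such clusters, while PVT1 was counted within its own bounds, so this share may be too low. For CTCF, 47.6% of these tiles had as few summits as PVT1, and the median tile had 3, so its CTCF count was common for a stretch of its length. These comparisons used the lists that led to the choice of the locus, so no test was attached to them.

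**Figure D5:**
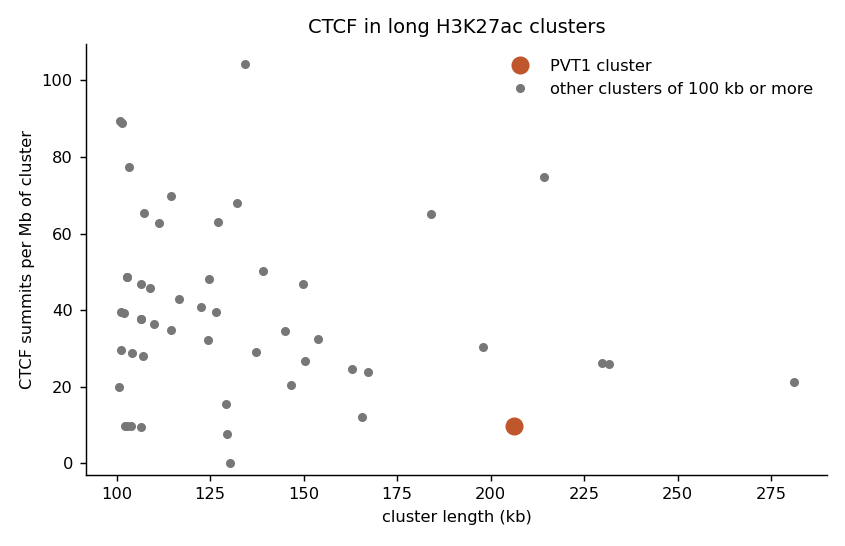
CTCF summits per Mb of cluster against cluster length in kb for the 52 clusters of H3K27ac peaks of 100 kb or more; the large point is the PVT1 cluster and the small points are the other 51. The PVT1 cluster, at 206.2 kb and 9.70 summits per Mb, lies below all clusters longer than it and below most of the shorter ones.

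Local background, the number of fragments that the authors' peak caller took as given around each peak, was somewhat higher in the window. For H3K27ac peaks its median was 4.67 fragments in the window (quartiles 3.99 and 5.60), against 3.89 in the rest of the assembled chromosomes (quartiles 3.18 and 5.02). For CTCF peaks the medians were 3.23 in the window and 3.00 elsewhere. At 30.6% of all H3K27ac and 30.9% of all CTCF peaks this background was the genome-wide level, 3.18 and 2.18 fragments, not a local value. The lower quartile of the H3K27ac peaks elsewhere was at that level. In the PVT1 cluster the median was 4.47 fragments, against 4.03 over the 2326 H3K27ac peaks of the other long clusters. The files do not measure how many copies of the locus DU145 carries, and the part of local background in the number of peaks was not tested. At the edges of the window the last H3K27ac peak before it, at chr8:127569308-127570745, had a fold of 15.3, and the first after it had 3.86; the first and the last inside had 4.85 and 3.37. The CTCF peaks just outside had folds of 15.1 and 13.1, and the outermost inside had 11.9 and 5.09.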

How the data were processed

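Chromatin immunoprecipitation and sequencing of CTCF and H3K27ac in DU145 cells was analysed from 1 peak list per mark. Bowtie, MACS2 and build hg19 are named in the submitters' processing notes; the versions, the settings and which input served as background are not given. Each list has coordinates and a summit for every peak. The strength columns that the authors deposited are fold enrichment (a linear ratio), p and q on the −log10 scale, and an integer score, which was not used. No peak had a −log10 q under 1.31, so weaker sites are not listed. Positions count from 1.

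Fragments at a summit and the local background were solved from fold and −log10 p (tolerance 0.002), with CTCF fragments scaled by 0.911 and H3K27ac fragments by 1; 100% of peaks were solved. Intervals (95%, exact Poisson, Wilson, or exact binomial for a ratio of 2 counts) cover counting error only. Peaks were assigned to stretches by summit, overlap needed 1 shared base, and H3K27ac peaks within 12.5 kb were joined into clusters. Densities elsewhere used the span from the first to the last peak of each assembled chromosome, less the window. Methods were tested on simulated data. Named were peaks at MYC and PVT1, the 10 strongest H3K27ac peaks, all CTCF peaks and clusters of 3 or more peaks; further weak peaks were named after their values were seen. The window, genes and comparisons were chosen with earlier results of these data known. No test between samples was possible. Python 3.11.15, numpy 2.4.6, pandas 2.3.3, scipy 1.17.1 and matplotlib 3.10.9 were used. Input libraries were not analysed here.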

Additional observations from a re-analysis of the deposited data

How the results depend on the processing

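Of 66 alternatives for 17 results, 63 were planned and 3 were chosen after seeing the data. In 36 the value was kept and in 30 it moved. A stricter limit on fold or q can only lower peak counts and covered bases, so this tally is no measure of robustness. Kept meant within its interval, within 1.5 times for counts, ranks and covered bases, and identical for distances and cluster length. Whether a direction turned was not checked. Keeping only peaks with a −log10 q of 10 or more left 33 H3K27ac peaks covering 69.5 kb in the window, with a median fold of 6.91 and a density 2.71 times that elsewhere. It shortened the PVT1 cluster to 99.2 kb, with rank 32 by score in place of 6 and 0 CTCF summits, and left 0 CTCF peaks on PVT1 (a ratio to the upstream stretch of 0), so the nearest CTCF summit to the PVT1 start was 56.9 kb away. Keeping the stronger peaks of each list, at or above its median fold, left 42 H3K27ac and 10 CTCF peaks, a median H3K27ac fold of 5.81 and a density 2.93 times that elsewhere. It gave 6 clusters, a PVT1 cluster of 177.7 kb with 0 CTCF summits, a ratio of 0 for CTCF on PVT1, and nearest CTCF summits 1.65 kb from the MYC start and 56.9 kb from the PVT1 start. Joining at 3 kb gave 30 clusters, the longest of 87.3 kb with 1 CTCF summit; joining at 5 kb gave 17 clusters, the longest of 178.6 kb with rank 3; joining at 20 kb gave rank 13. By bases in peaks the rank was 3. Against the rest of chromosome 8 alone, H3K27ac density in the window was 5.82 times higher. No H3K27ac summit lay inside a CTCF peak (0%). With only CTCF summits at or above the median fold, chosen after seeing the data, the PVT1 cluster held 0. Scored by fragments less background, also chosen afterwards, it ranked 7. The cause of these moves was not tested beyond the smaller lists themselves. No paired analysis was possible because each mark has 1 library. Weak peaks rest on as few as 12 H3K27ac or 17 CTCF fragments in the window, which limits their ranking.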
